A study of Mus musculus with 96 samples.

Results

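The Gstm genes encode the mu class of cytosolic glutathione transferases, enzymes that join the tripeptide glutathione to electrophiles, among them reactive drug metabolites and products of lipid peroxidation. The conjugates leave the hepatocyte through membrane exporters and are trimmed to mercapturates, and liver is a main site of this chemistry. In rodents the mu class genes are known to be inducible by drugs that activate the nuclear receptors CAR and PXR and by electrophiles that activate the transcription factor NRF2. In the mouse the genes lie side by side on chromosome 3.

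The 7 genes described here are Gstm1, Gstm2, Gstm3, Gstm4, Gstm5, Gstm6 and Gstm7. Each was chosen because at least 1 probe set of the array is annotated with its symbol alone, and where several are, the one whose signal averaged highest across the 96 arrays was read. All 7 met the rule, out of 18193 genes measured in this way, and no probe set annotated with several symbols names any of them.

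The samples were livers of female and male mice of the outbred CD-1 stock that received PB in the diet, or a diet at dose 0, for 7 or 2 days. The labels do not spell PB out; in work on CAR the abbreviation commonly stands for phenobarbital. The doses above 0 were 0.15, 1.5, 15, 75 and 150. The design text of the series counts them in mg/kg-day and the titles of the samples in ppm; they are given in mg/kg-day below, and which unit is right is not known. The 24 groups of sex, dose and day held 4 arrays each, 96 in all, and age, genotype other than the stock, and whether the 4 arrays of a group are 4 separate mice are not stated. The p-values therefore measure the spread between these samples, which may be technical in part. Values are log2 signals of single probe sets. The level of one gene is not set against that of another, since probe sets differ in brightness for the same amount of RNA.

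In order along chromosome 3 the genes are Gstm5, Gstm7, Gstm6, Gstm3, Gstm2, Gstm1 and Gstm4, with the pseudogenes Gm9515, Gm12497 and Gm12502 among them. Gstm5 is transcribed from the plus strand and the other 6 from the minus strand. The RefSeq promoter table holds windows for all 7 genes, 12 windows over their annotated starts. The 250 bases before the first listed start are shown here for Gstm3, Gstm2 and Gstm4, which had the largest changes described below, and for Gstm5, which stands at the other end of the cluster and did not pass the test at any dose. Each is written 5′ to 3′ on the strand of its gene, in GRCm38.p6 coordinates, with any match to a searched motif in capitals.
Gstm3, chr3:107969175-107969424, minus strand: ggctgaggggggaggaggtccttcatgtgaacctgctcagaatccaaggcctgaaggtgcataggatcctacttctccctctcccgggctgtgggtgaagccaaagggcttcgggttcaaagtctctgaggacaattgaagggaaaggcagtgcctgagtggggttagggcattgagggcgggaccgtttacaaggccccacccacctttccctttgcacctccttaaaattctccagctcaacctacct
Gstm2, chr3:107986421-107986670, minus strand: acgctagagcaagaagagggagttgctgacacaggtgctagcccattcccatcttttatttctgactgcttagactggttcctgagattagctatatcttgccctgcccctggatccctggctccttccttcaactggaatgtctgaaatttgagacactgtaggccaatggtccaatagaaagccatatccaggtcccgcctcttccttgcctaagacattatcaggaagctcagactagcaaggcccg
Gstm4, chr3:108044860-108045109, minus strand: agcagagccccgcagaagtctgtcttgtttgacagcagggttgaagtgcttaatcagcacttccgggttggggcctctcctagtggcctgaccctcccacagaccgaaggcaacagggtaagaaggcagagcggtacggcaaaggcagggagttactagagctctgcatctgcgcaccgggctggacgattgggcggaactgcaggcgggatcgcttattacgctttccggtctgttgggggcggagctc
Gstm5, chr3:107895604-107895853, plus strand: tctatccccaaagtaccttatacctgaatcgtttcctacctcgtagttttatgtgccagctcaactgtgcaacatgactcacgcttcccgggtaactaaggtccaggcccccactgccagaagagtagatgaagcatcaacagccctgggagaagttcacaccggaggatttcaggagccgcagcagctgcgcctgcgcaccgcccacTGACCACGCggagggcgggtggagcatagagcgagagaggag

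The search covered 3 motifs on both strands of the 250 bases. TGACNNNGC is the core of the antioxidant response element bound by NRF2, and 10.2% of 32851 mouse promoter windows of the same length held it. AGGTCA is the half-site that nuclear receptors bind, in 14.0% of the windows. TATAAA, the letters of a TATA box, was in 12.4%. The 3 motifs do not overlap one another in the windows shown. TGACNNNGC occurred as TGACCACGC in Gstm5, with its first base at -42 from the start, and as TGACAAAGC before the other start listed for Gstm7, at -129. TATAAA occurred at -231 before the first start of Gstm7, and at -30 before the second start listed for Gstm1, in the stretch from -50 to -21 shown here with the motif in capitals.
Gstm1, chr3:108017839-108017868, minus strand: cacgtttctctagtagtctgTATAAAgtca
The windows of Gstm2, Gstm3, Gstm4 and Gstm6 held none of the 3 motifs, and AGGTCA was in no window of the 7 genes. These are matches of letters in a short window and are given as a description of the sequences.

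The deposited values ran alike across the arrays, with a median between 5.35 and 5.44 and a highest value between 14.86 and 14.97. Every one of the 7 genes lay above 4.09, the largest lower quartile of any array, on all 96 arrays. Cyp2b10, the cytochrome P450 gene most used as a marker of CAR activity, served as a check of the dose labels. At 150 mg/kg-day its fold over dose 0 was 45.8 in females and 66.7 in males on day 7, and 43.3 in females and 68.9 in males on day 2. On day 2, 2 male arrays went against their labels. The array labelled 15, replicate 1, had a Cyp2b10 signal of 13.66, against 11.07, 11.29 and 11.27 on the other arrays labelled 15. The array labelled 75, replicate 1, had 10.98, against 13.27, 13.19 and 13.36 on the others labelled 75. Changes over dose 0 at 15 and 75 in males on day 2 are given below with all arrays and, for the Gstm genes that rose and for the P450 genes, also without these arrays. The hepatocyte markers were bright in every group compared, with a mean over the 6 genes Alb, Apoa1, Ttr, Hnf4a, Serpina1c and Cps1 between 14.09 and 14.20 at 150 and between 14.16 and 14.25 at dose 0.

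At 150 mg/kg-day the same 4 genes rose in each sex on each day: Gstm1, Gstm2, Gstm3 and Gstm4. A rise or fall is stated where limma's adjusted p, by Benjamini-Hochberg over all 18193 genes, was below 0.05. Gstm5, Gstm6 and Gstm7 did not pass the test in any of these comparisons (Gstm6 in males on day 2 passed in other fits, given below), and 0 of 7 fell. On day 7, 4 of 7 members were called higher in females, where 1.52% of all genes were called higher, and 4 of 7 in males, against 2.2% of all genes. On day 2 it was 4 of 7 in females, against 3.32% of all genes, and 4 of 7 in males, against 2.5% of all genes. The share of all genes called lower was 0.923% in females and 0.835% in males on day 7, and 2.14% in females and 2.4% in males on day 2. The median log2 change of the 7 members was 0.58 in females and 0.67 in males on day 7, and 0.81 in females and 0.78 in males on day 2; over all genes the 4 medians lay between -0.03 and 0.00. In the order of the chromosome the 4 genes that rose are neighbours, with the pseudogenes between them left aside. In whole liver RNA, more RNA per cell and a larger share of the cells that hold it cannot be told apart.

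**Figure D1:**
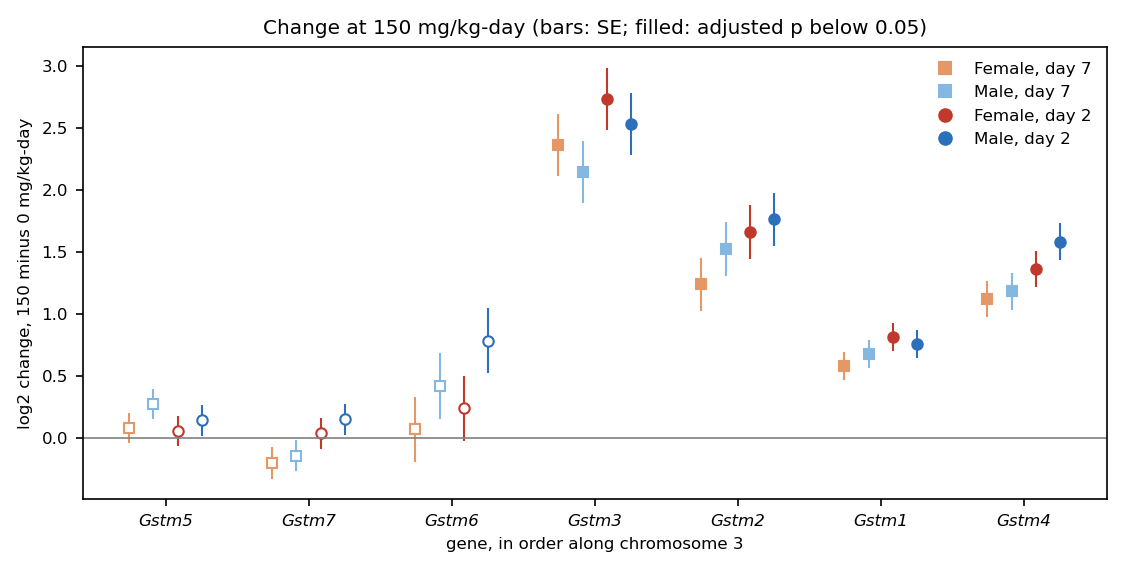
Log2 change at 150 over 0 mg/kg-day for the 7 Gstm genes, placed in their order along chromosome 3 (x axis) for the 4 combinations of sex and day. Points are limma estimates, bars are standard errors and filled points have an adjusted p below 0.05; Gstm3 has the largest change in each combination, and Gstm5, Gstm7 and Gstm6 have open points throughout.

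Gstm3, an inducible mu class enzyme of mouse liver, changed most. In females on day 7 its log2 signal was 13.28, 13.24, 13.01 and 13.11 at 150, against 10.42, 10.72, 11.38 and 10.67 at dose 0. In males on day 7 it was 13.83, 13.45, 13.16 and 13.56 at 150, against 11.25, 10.98, 11.68 and 11.53 at dose 0. The groups did not overlap in either sex, and the lowest treated array stood more than 1 log2 unit above the highest array at dose 0. On day 2 females had 14.00, 13.97, 13.52 and 13.41 at 150, against 11.49, 10.31, 11.11 and 11.05 at dose 0. Males on day 2 had 13.83, 13.98, 13.91 and 13.95 at 150, against 11.39, 11.60, 11.69 and 10.88 at dose 0. The arrays at 150 were again all above those at dose 0. The log2 change was 2.36 ± 0.25 (SE, n = 4 a group, as for all changes below) in females on day 7, a 5.14-fold rise with a limma adjusted p of 3.91e-11. It was 2.14 ± 0.25 in males on day 7, 4.41-fold, with a limma adjusted p of 8.45e-10. On day 2 it was 2.73 ± 0.25 in females, 6.65-fold (limma adjusted p = 1.78e-13), and 2.53 ± 0.25 in males, 5.77-fold (limma adjusted p = 2.11e-12).

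Gstm2, a mu class enzyme also found in skeletal and heart muscle, followed. Females on day 7 had 11.06, 11.54, 11.19 and 11.05 at 150, against 9.75, 9.64, 10.24 and 10.27 at dose 0. Males on day 7 had 11.71, 11.49, 11.73 and 11.33, against 10.15, 10.13, 10.001 and 9.90 at dose 0. All treated arrays were above all arrays at dose 0 in both sexes. On day 2 females had 12.14, 12.17, 11.34 and 11.18 at 150, against 10.30, 9.54, 10.005 and 10.33 at dose 0. Males on day 2 had 11.80, 11.91, 11.71 and 11.80, against 10.28, 10.26, 10.11 and 9.53 at dose 0. The groups again stayed apart, with the widest spread among the treated females of day 2, where replicates 1 and 2 lay well above the other two. The fold was 2.36 in females and 2.87 in males on day 7, from log2 changes of 1.24 ± 0.22 and 1.52 ± 0.22 (limma adjusted p = 6.98e-05 and 4.96e-07). On day 2 it was 3.16 in females and 3.39 in males, from 1.66 ± 0.22 and 1.76 ± 0.22 (limma adjusted p = 2.97e-08 and 5.58e-09).

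Gstm4 stands last in the cluster, next to Gstm1. Females on day 7 had 10.97, 10.77, 10.64 and 10.92 at 150, against 9.60, 9.82, 9.72 and 9.69 at dose 0. Males on day 7 had 11.54, 11.29, 11.20 and 11.37, against 10.11, 10.25, 10.26 and 10.05 at dose 0. The arrays at 150 were all higher. On day 2 females had 11.43, 11.26, 11.34 and 11.12 at 150, against 10.10, 9.85, 9.83 and 9.95 at dose 0. Males on day 2 had 11.49, 11.88, 11.57 and 11.75, against 9.84, 10.19, 10.28 and 10.06 at dose 0. No array at dose 0 reached the range at 150. The spread between arrays was smaller than for Gstm2 and Gstm3, so that a fold of 2.17 in females and 2.27 in males on day 7 had limma adjusted p values of 5.42e-08 and 7.54e-09. On day 2 the fold was 2.56 in females and 2.99 in males (limma adjusted p = 1.18e-10 and 1.63e-13). The log2 changes were 1.12, 1.18, 1.36 and 1.58 in the same order, each ± 0.15.

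Gstm1, the mu class enzyme long known as a major one of mouse liver, rose least of the 4. Females on day 7 had 13.89, 13.90, 13.64 and 13.75 at 150, against 12.96, 13.29, 13.35 and 13.28 at dose 0. Males on day 7 had 14.10, 13.90, 14.06 and 14.16, against 13.38, 13.34, 13.42 and 13.38 at dose 0. On day 2 females had 14.10, 14.06, 13.83 and 13.76 at 150, against 13.36, 13.09, 13.12 and 12.94 at dose 0. In each of these pairs the treated arrays lay above those at dose 0, by less than 1 log2 unit between the nearest arrays. Males on day 2 had 14.04, 14.25, 14.13 and 14.06, against 13.33, 13.44, 13.52 and 13.16 at dose 0, again without overlap. The fold was 1.49 in females and 1.59 in males on day 7 (limma adjusted p = 0.000629 and 2.99e-05), and 1.75 in females and 1.69 in males on day 2 (limma adjusted p = 2.19e-07 and 1.85e-06). The log2 changes were 0.58, 0.67, 0.81 and 0.76 in that order, each ± 0.11.

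Gstm5 is known in mice for its expression in testis and brain. Its mean at 150 was 9.64 ± 0.16 in females and 9.50 ± 0.33 in males on day 7 (SD, n = 4), against 9.56 ± 0.10 in females and 9.23 ± 0.08 in males at dose 0. On day 2 it was 9.74 ± 0.17 in females and 9.67 ± 0.20 in males at 150, against 9.69 ± 0.41 and 9.53 ± 0.07 at dose 0. The groups overlapped in all 4 comparisons. The log2 changes were 0.08, 0.27, 0.06 and 0.14 in females and males on day 7 and females and males on day 2, with limma adjusted p values of 0.856, 0.256, 0.894 and 0.655. The 95% intervals reached at most 0.52, in males on day 7, and went no lower than -0.19, in females on day 2.

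Gstm7 stands next to Gstm5 in the cluster. Its mean at 150 was 9.59 ± 0.17 in females and 9.69 ± 0.05 in males on day 7, against 9.79 ± 0.05 and 9.83 ± 0.13 at dose 0 (SD, n = 4). On day 2 it was 9.82 ± 0.16 in females and 10.01 ± 0.10 in males at 150, against 9.78 ± 0.18 and 9.86 ± 0.10 at dose 0. The log2 changes were -0.20 in females and -0.14 in males on day 7, and 0.04 in females and 0.15 in males on day 2, with limma adjusted p values of 0.503, 0.657, 0.933 and 0.630. Their 95% intervals all held 0 and lay between -0.45 and 0.40.

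Gstm6 had the widest spread between arrays of these 3. In males on day 2 its signal was 10.48, 10.57, 10.32 and 10.60 at 150, against 9.42, 10.06, 9.90 and 9.46 at dose 0. These groups did not overlap, but the log2 change of 0.78 ± 0.26 had a limma adjusted p of 0.0695 and a 95% interval from 0.26 to 1.30. The call depends on the fit: the limma adjusted p was 0.00201 from the 24 arrays of males on day 2, 0.0174 from the 8 arrays compared, 0.0497 with array weights and 0.0495 without the dose 0 array of replicate 2. In males on day 7 it was 10.14, 9.81, 10.73 and 10.42 at 150, against 9.87, 9.73, 9.85 and 9.99 at dose 0, where the groups overlapped and the change was 0.42 (limma adjusted p = 0.488). In females the change was 0.07 on day 7 and 0.24 on day 2 (limma adjusted p = 0.955 and 0.748). The difference between the sexes in this change, females minus males, was -0.35 on day 7 and -0.54 on day 2, with 95% intervals from -1.09 to 0.39 and from -1.28 to 0.20. It did not pass the test on either day.

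The dose at which the rise was first called was 75 mg/kg-day for Gstm2, Gstm3 and Gstm4 in both sexes on both days. For Gstm1 it was 75 in females and 150 in males. That split was not the same for each probe set of Gstm1, with limma's adjustment over all probe sets. At 75, 1448330_at passed in females only, and 1425626_at in neither sex on either day. Set 1425627_x_at passed on day 2 in males (limma adjusted p = 0.0470) and not in females (0.0505). On day 7 it passed in females (0.00828) and not in males (0.0539). At 75, 4 of 7 members were called higher in females on day 7, against 0.44% of all genes, and 3 of 7 in males, against 0.247%. On day 2 it was 4 of 7 in females, against 0.308% of all genes, and 3 of 7 in males, against 0.363%. At 15, 1.5 and 0.15 mg/kg-day limma called 0 members in either sex on either day; at 15 the share of all genes called in either direction was 0.022% in females and 0.011% in males on day 7 and 0.022% in females and 0.0385% in males on day 2. At 1.5 it was 0% throughout, and at 0.15 it was 0.0055% in males on day 7 and 0% elsewhere. Below an unadjusted p of 0.05 there were 3 members at 15 in males on day 7 (Gstm3, Gstm4 and Gstm5), 1 in females on day 7 (Gstm2), 1 in males on day 2 (Gstm3) and 0 in females on day 2. At 1.5 there was 1 in each sex on day 7 (Gstm3 in females, Gstm5 in males) and 0 on day 2, and at 0.15 there were 0.

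The level of Gstm3 by dose shows the shape of the response. In females on day 7 the means from dose 0 up through the 5 doses to 150 mg/kg-day were 10.80 ± 0.41, 10.79 ± 0.43, 11.32 ± 0.36, 11.27 ± 0.38, 12.89 ± 0.43 and 13.16 ± 0.12 (SD, n = 4). In males on day 7 they were 11.36 ± 0.31, 11.80 ± 0.15, 11.61 ± 0.33, 12.05 ± 0.37, 12.95 ± 0.11 and 13.50 ± 0.28. Up to 15 mg/kg-day no step between neighbouring doses passed limma's test on day 7 in either sex; the step at 1.5 against 0.15 in females was 0.53 (unadjusted p = 0.0370, adjusted p = 0.883), and the groups overlapped. On day 2 the means of females were 10.99 ± 0.49, 10.74 ± 0.18, 11.13 ± 0.41, 11.38 ± 0.32, 12.79 ± 0.45 and 13.72 ± 0.30. Those of males on day 2 were 11.39 ± 0.37, 11.59 ± 0.30, 11.52 ± 0.06, 12.07 ± 0.81, 12.99 ± 0.40 and 13.92 ± 0.06. The wide spread of males at 15 on day 2 came with the array labelled 15, replicate 1, at 13.21, where the other arrays had 11.39, 11.61 and 12.08. Without the arrays that went against their labels the male means of day 2 were 11.69 ± 0.36 at 15 and 13.17 ± 0.22 at 75 (SD, n = 3).

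**Figure D2:**
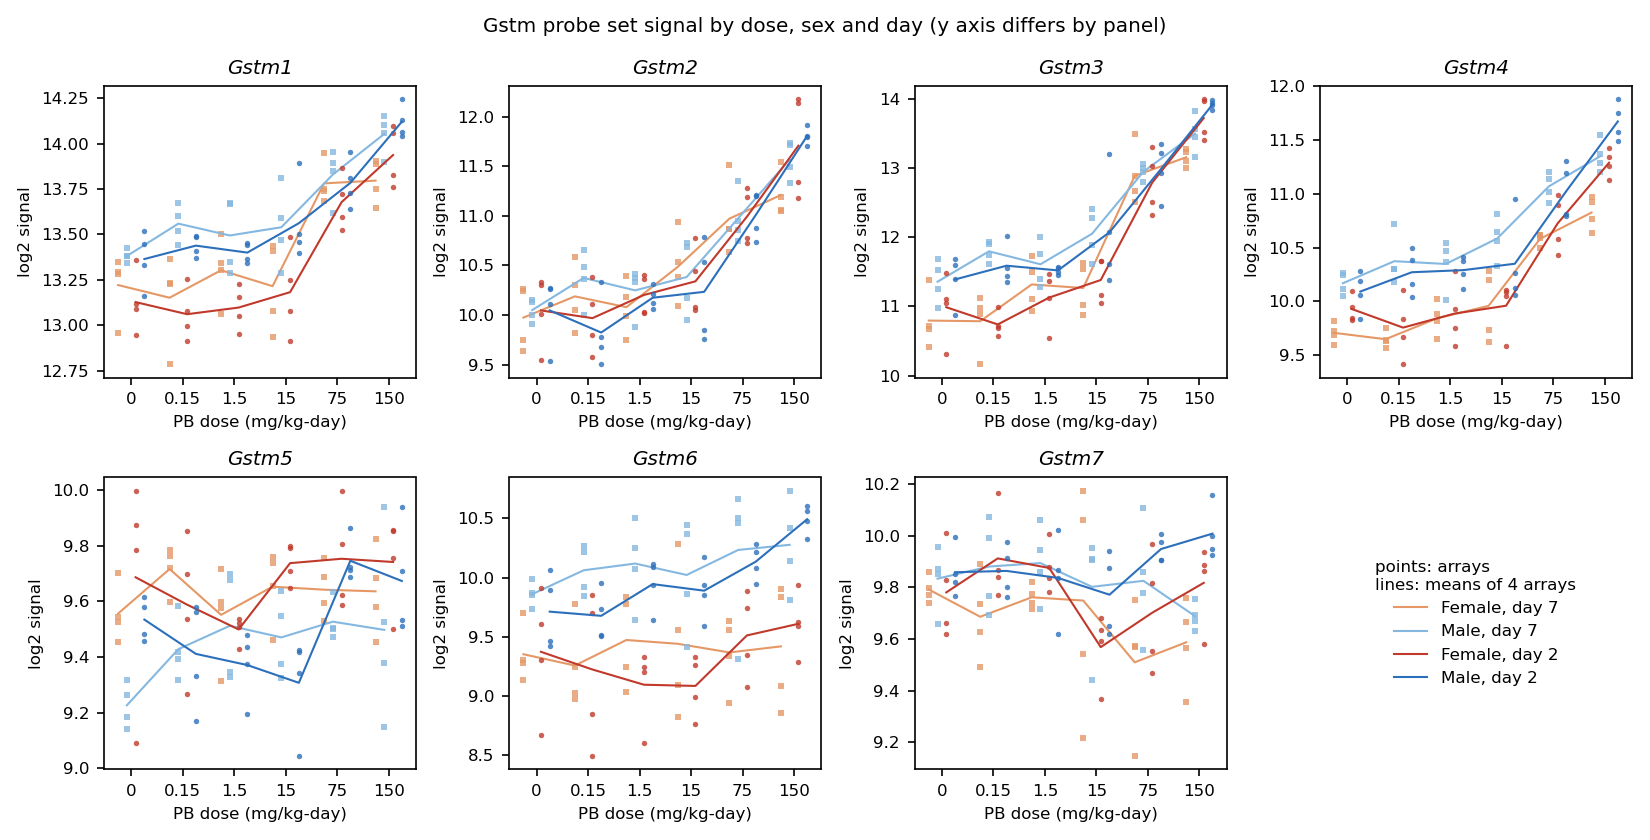
Log2 signal (y axis, own range in each panel) of the 7 Gstm genes against PB dose in mg/kg-day (x axis, the 6 doses evenly spaced), with 1 point an array and lines through the means of 4 arrays for each sex and day. Gstm1, Gstm2, Gstm3 and Gstm4 climb at 75 and 150, and Gstm5, Gstm6 and Gstm7 have no called change at any dose.

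Against dose 0, Gstm3 at 75 was 4.26-fold higher in females and 3.01-fold higher in males on day 7 (limma adjusted p = 1.34e-08 and 2.77e-05), and 3.49-fold higher in females and 3.02-fold higher in males on day 2 (limma adjusted p = 1.34e-06 and 2.88e-05). Gstm2 was between 1.90 and 2.00 times its level at dose 0 in the 4 comparisons, with limma adjusted p values from 0.00727 to 0.0275. Gstm4 was between 1.73 and 1.91 times its level at dose 0, with limma adjusted p values from 2.92e-05 to 0.00104. Gstm1 at 75 was 1.47-fold higher in females on both days (limma adjusted p = 0.00364 on day 7 and 0.00497 on day 2). In males its log2 change at 75 was 0.45 on day 7 and 0.42 on day 2, with limma adjusted p values of 0.0687 and 0.0749 and with no overlap between groups. The difference between the sexes in the change at 75 was tested for each member and 0 of 7 passed on either day, where 0.0055% of all genes did on day 7 and 0% on day 2. The calls in females rested on single arrays in part. On day 7 the 4 calls at 75 were 2 without the dose 0 array of replicate 1 or without the 75 array of replicate 3, and on day 2 they were 2 without the 75 array of replicate 4. For males the 3 calls of day 7 were 2 without the dose 0 array of replicate 2, 3 or 4 or the 75 array of replicate 1 or 4, and 4 without the 75 array of replicate 2. Those of day 2 were 2 without the dose 0 array of replicate 4 or the 75 array of replicate 2 or 3, and 4 without the 75 array of replicate 1.

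Without the 2 male arrays of day 2 that went against their labels, which were left out after the data were seen, 4 of 7 members were called at 75 in males on day 2, and 4 of 7 in males on day 7, in the same fit. On day 2 Gstm1 then had a log2 change of 0.47 and a limma adjusted p of 0.0350. Gstm2 was 2.00-fold, Gstm3 3.42-fold and Gstm4 2.01-fold higher than at dose 0. At 15 in males on day 2, still 0 of 7 were called, and the change of Gstm3 was 0.30, against 0.68 with all arrays. On the array labelled 15, replicate 1, Gstm1 was 13.90, Gstm2 10.78, Gstm3 13.21 and Gstm4 10.95, each above the other arrays labelled 15. On the array labelled 75, replicate 1, Gstm1 at 13.64, Gstm3 at 12.45 and Gstm4 at 10.79 were the lowest of the arrays labelled 75, and Gstm2 at 10.88 was second lowest.

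**Figure D3:**
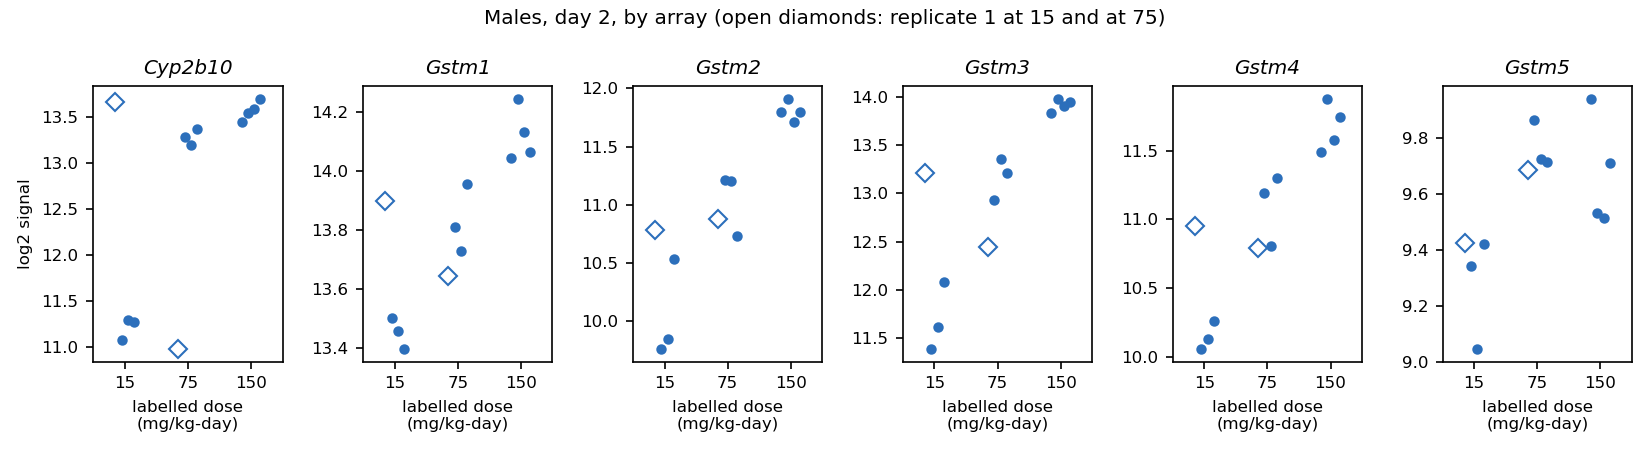
Log2 signal (y axis) of Cyp2b10 and of Gstm1 to Gstm5 on the male arrays of day 2, by labelled dose of 15, 75 or 150 mg/kg-day (x axis). Open diamonds are replicate 1 at 15 and at 75; at 15 the diamond of Cyp2b10 lies at 13.66, among the arrays labelled 150, and that of Gstm3 at 13.21.

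Between neighbouring doses the 7 members were tested over the 5 steps from dose 0 up, in each of the 4 combinations of sex and day. At 75 against 15 in females on day 7, Gstm3 and Gstm1 rose (limma adjusted p = 3.73e-05 and 0.0101), where 0.0495% of all genes were called higher. At 75 against 15 in females on day 2, Gstm3, Gstm4 and Gstm1 rose (limma adjusted p = 0.00178, 0.00609 and 0.0471), where 0.0989% of all genes were. At 150 against 75 on day 2, Gstm4 and Gstm3 rose in females (limma adjusted p = 0.0242 and 0.0322), where 1.2% of all genes were called higher, and Gstm4 in males (limma adjusted p = 0.0367), where 0.0989% were. On day 7 no member passed the test between 150 and 75 in either sex, where 0.055% of all genes in females and 0.104% in males were called higher. Males had no member passing at any step on day 7, among them that of 75 against 15, where 0.0715% of all genes were called higher; in males on day 2 none passed at 75 against 15, where 0% were. On the steps up to 15 no member passed, and at most 0.0275% of all genes did, that share being reached at 15 against 1.5 in males on day 2; on that step it was 0.0055% in females and 0.0165% in males on day 7 and 0.011% in females on day 2. The count of these calls was 8 in all. It was 5 without the 75 array of replicate 1, of replicate 3 or of replicate 4 of females on day 2. Without the 2 male arrays that went against their labels, Gstm2, Gstm3 and Gstm4 rose at 75 against 15 in males on day 2 (limma adjusted p = 0.0483, 0.000439 and 0.000148), and the step of Gstm4 at 150 against 75 no longer passed (limma adjusted p = 0.160).

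The size of the change at 150 was then set against that of the other sex and of the other day within the one fit. Of the 7 members 0 differed between females and males on day 7, where 0.0879% of all genes did, and 0 on day 2, where 0.0055% did. Of the 7, 0 differed between day 7 and day 2 in females, where 0.874% of all genes did, and 0 in males, where 0.132% did. An unadjusted p below 0.05 was found for 0 members in each of these comparisons, by limma. For Gstm3 the difference of the log2 changes, females minus males, was 0.22 on day 7 (95% interval -0.49 to 0.92) and 0.21 on day 2 (-0.50 to 0.91). For day 7 minus day 2 it was -0.37 in females (-1.08 to 0.33) and -0.39 in males (-1.09 to 0.32). The intervals for Gstm2 between days ran from -1.04 to 0.19 in females and from -0.85 to 0.37 in males. For Gstm4 they ran from -0.65 to 0.17 in females and from -0.81 to 0.01 in males, and for Gstm1 from -0.56 to 0.09 and from -0.41 to 0.24. Each of these 4 genes had the smaller estimate on day 7 in both sexes, and all of these intervals held 0.

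At dose 0, Gstm4 on day 7 was the only member called between the sexes. Its signal was 9.60, 9.82, 9.72 and 9.69 in females, against 10.11, 10.25, 10.26 and 10.05 in males. The groups did not overlap, and the mean was lower in females by a log2 difference of -0.46 ± 0.15, with a limma adjusted p of 0.0395; 2.08% of all genes were called lower in females on that day, and 6.71% differed in either direction. On day 2 limma called 0 of 7 members, with 1 (Gstm1) below an unadjusted p of 0.05, and 2.06% of all genes. The Gstm4 call of day 7 was lost in the fits without each of 7 of the 8 arrays, all but the female array of replicate 2. On day 2 the difference of Gstm4 was -0.16 (limma adjusted p = 0.766). On day 7 Gstm3 had 10.80 ± 0.41 in females and 11.36 ± 0.31 in males (limma adjusted p = 0.191). Gstm6 had 9.35 ± 0.24 in females and 9.86 ± 0.10 in males (limma adjusted p = 0.279), and Gstm5 9.56 ± 0.10 in females and 9.23 ± 0.08 in males (limma adjusted p = 0.0925), the groups of both standing apart. Between day 7 and day 2 at dose 0, limma called 0 of 7 members in females and 0 in males, with 0 and 1 below an unadjusted p of 0.05; of all genes 0.0165% and 0% differed. The 1 was Gstm5 in males, with 9.23 ± 0.08 on day 7 and 9.53 ± 0.07 on day 2.

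Several of the genes have more than 1 probe set, which gives a second reading of the same arrays. The sets read above were 1416416_x_at for Gstm1, 1416411_at for Gstm2, 1427474_s_at for Gstm3, 1424835_at for Gstm4, 1416842_at for Gstm5, 1422072_a_at for Gstm6 and 1419072_at for Gstm7. By the maker's naming, the endings _x_at and _s_at mark probe sets whose probes may also match other transcripts, which in a family of similar sequences can include other members. Cross-hybridisation was not tested. The second set of Gstm3, 1427473_at, carries no such ending and gave a larger fold at 150, 5.93 in females and 7.59 in males on day 7, and 11.2 in females and 12.6 in males on day 2. These were 1.15, 1.72, 1.68 and 2.18 times the folds of the set read above. The 3 other sets of Gstm1 gave folds from 1.61 to 2.12, all with limma adjusted p values of at most 0.00107. These were from 1.08 to 1.25 times the folds of the set read above, which is the brightest set of Gstm1. Whether its brightness lowers its fold was not tested. The second set of Gstm7 gave log2 changes from -0.06 to 0.02, with 0 of 4 passing the test. Gstm2, Gstm4, Gstm5 and Gstm6 have 1 set each.

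**Figure D4:**
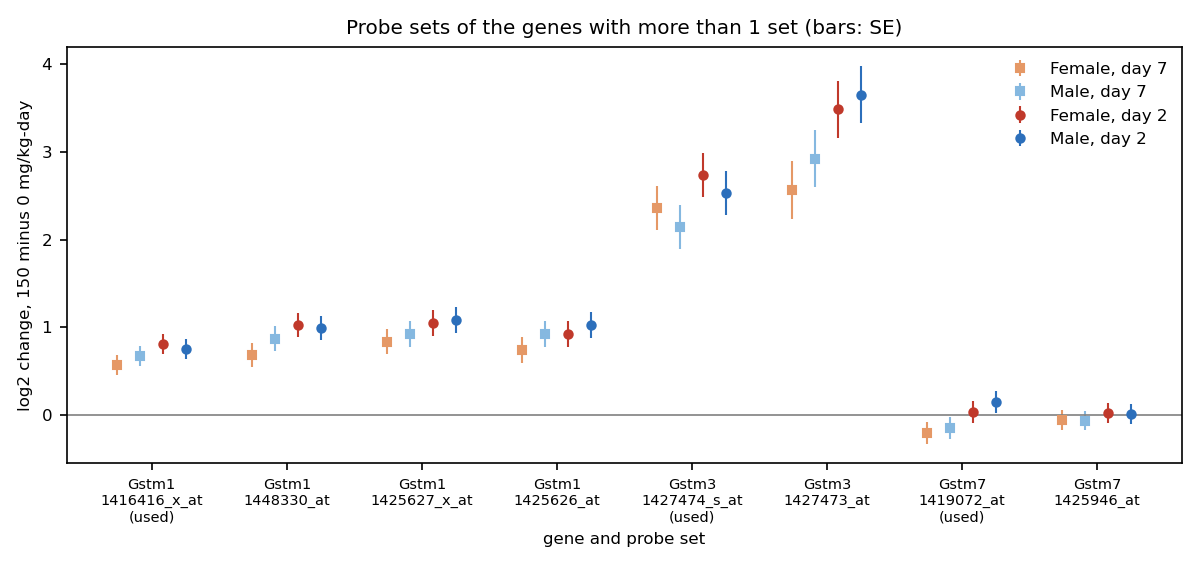
Log2 change at 150 over 0 mg/kg-day (y axis) read from each probe set of Gstm1, Gstm3 and Gstm7 (x axis) for the 4 combinations of sex and day; points are limma estimates and bars standard errors. The second Gstm3 set lies above the set read in the text, at 5.93 to 12.6-fold, and both Gstm7 sets lie near 0.

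The changes of the 4 genes that rose ran together over the groups. Each group mean at a dose above 0 was taken as its difference from the dose 0 mean of the same sex and day, which gives 20 points that share their dose 0 means in fives. Pearson's r between Gstm1, Gstm2, Gstm3 and Gstm4 lay between 0.94 and 0.98. With Gstm6 their r was between 0.58 and 0.72, with Gstm5 between 0.37 and 0.46, and with Gstm7 between -0.21 and -0.07. Among 1526 other genes called at 150 in at least 1 comparison and with a mean of 6 or more, 4931406C07Rik had the highest r with each of the 4, from 0.96 to 0.97. Arpp19 followed for Gstm1, Gstm2 and Gstm4 (r from 0.95 to 0.96) and Cyp2c55 for Gstm3 (r = 0.96). Sar1b for Gstm1 and Gstm4 (r = 0.95 and 0.95) and Ugt2b34 for Gstm2 and Gstm3 (r = 0.94 and 0.96) came next. These values describe likeness over points that share arrays, and are given without a test. The 4 genes, and the 1526 compared with them, were picked by their calls at 150. A high r over changes from dose 0 follows in part from that choice. The lower r of Gstm5, Gstm6 and Gstm7, which were not called, does so too. Without the arrays that went against their labels, r between the 4 genes again lay between 0.95 and 0.98.

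Cyp2b10 and Cyp2c55, P450 genes known as targets of CAR, passed the test at a lower dose than any Gstm gene. At 15 mg/kg-day Cyp2b10 was 8.78-fold higher in females and 13.0-fold higher in males on day 7, and 9.40-fold and 20.6-fold higher in females and males on day 2, with limma adjusted p values of at most 5.17e-07. Cyp2c55 was 4.63-fold, 5.66-fold, 5.03-fold and 8.08-fold higher in the same order (limma adjusted p of at most 0.0128). The values of males on day 2 include the array labelled 15 whose Cyp2b10 was 13.66. Without the arrays that went against their labels Cyp2b10 was 13.5-fold and Cyp2c55 4.30-fold higher at 15 in males on day 2 (limma adjusted p = 4.97e-12 and 2.75e-05). The difference between these genes and the Gstm genes was not tested. Nqo1, a quinone reductase gene known as a target of NRF2, rose at 150 on day 2, to 2.26-fold in females and 1.99-fold in males (limma adjusted p = 0.000701 and 0.00813). On day 7 its log2 change at 150 was 0.42 in females and 0.41 in males (limma adjusted p = 0.487 and 0.468).

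Among 17 measured glutathione transferase genes of other classes, 3 rose at 150 in females and 3 in males on day 7, and 4 in females and 4 in males on day 2; 0 fell. Of all genes 1.52%, 2.2%, 3.32% and 2.5% were called higher in the same order, and 0.923%, 0.835%, 2.14% and 2.4% lower. The medians of the list were 0.10, 0.11, 0.05 and 0.09, beside -0.02, 0.00, -0.03 and -0.02 over all genes. Gstt3, of the theta class, rose 2.39-fold in females and 5.08-fold in males on day 7 (limma adjusted p = 0.00756 and 1.93e-08), and 2.91-fold in females and 7.03-fold in males on day 2 (limma adjusted p = 0.000173 and 4.07e-11). Gstt1, of the same class, rose 1.62-fold in females and 2.25-fold in males on day 7 and 1.97-fold in males on day 2 (limma adjusted p = 0.0256, 1.23e-05 and 0.000251). Its log2 change in females on day 2 was 0.56 (limma adjusted p = 0.0722). Gsta4, an alpha class enzyme known for conjugating 4-hydroxynonenal, rose on day 2 by a log2 change of 0.43 in females and 0.54 in males (limma adjusted p = 0.0118 and 0.00117). On day 7 its changes were 0.14 and 0.37 (limma adjusted p = 0.673 and 0.0578). The other calls, named after their values were seen, were Gsta2 in all 4 comparisons and Gstp1 in females on day 2. Gsta2 was 3.06-fold higher in females and 3.48-fold higher in males on day 7 (limma adjusted p = 0.0364 and 0.0118). On day 2 it was 3.60-fold higher in females and 2.86-fold higher in males (limma adjusted p = 0.00503 and 0.0349).

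Of 15 measured genes of glutathione synthesis and recycling, 2 rose in females and 2 in males on day 7, and 3 in females and 2 in males on day 2; 1 fell in each comparison. Over all genes the shares called higher at 150 were 1.52%, 2.2%, 3.32% and 2.5% in the same order, and the shares called lower 0.923%, 0.835%, 2.14% and 2.4%. The list medians were -0.06, 0.00, -0.02 and 0.00. Gsr, which reduces oxidised glutathione, rose in all 4, by log2 changes of 0.36 in females and 0.41 in males on day 7 and of 0.61 in females and 0.69 in males on day 2 (limma adjusted p from 9.39e-08 to 0.0161). Pgd, an enzyme of the pentose phosphate pathway that makes NADPH, rose on day 2, 1.63-fold in females and 1.45-fold in males. Cbs, the first enzyme of the route from homocysteine to cysteine, was the gene that fell, by 0.62 in females and 0.45 in males on day 7 and by 0.54 in females and 0.32 in males on day 2 on the log2 scale (limma adjusted p from 3.48e-06 to 0.0280). The other call, named after its values were seen, was Gpx4, in females on both days and in males on day 7.

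Of 13 measured genes of conjugate export and mercapturate processing, 3 rose in females and 2 in males on day 7, and 4 in females and 4 in males on day 2; 0 fell. Of all genes 1.52%, 2.2%, 3.32% and 2.5% were called higher in the same order, and 0.923%, 0.835%, 2.14% and 2.4% lower. The list medians were -0.04, 0.08, 0.01 and 0.01. The exporter genes Abcc4 and Abcc3 rose in all 4 comparisons. Abcc4, known for export across the basolateral membrane, rose 7.34-fold in females and 4.11-fold in males on day 7, and 3.93-fold in females and 1.99-fold in males on day 2 (limma adjusted p from 5.47e-12 to 0.0272). Abcc3, an exporter of the same membrane, rose 3.07-fold in females and 2.43-fold in males on day 7, and 3.40-fold in females and 2.63-fold in males on day 2. Abcc2, which exports glutathione conjugates into bile, rose on day 2, 1.91-fold in females and 1.81-fold in males (limma adjusted p = 0.00671 and 0.0182). The other calls, named after their values were seen, were Ggt6 in females on day 7 and males on day 2, and Abcg2 in females on day 2.

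Markers of other liver cells moved at 150 in some of the same comparisons. In males on day 7, 2 of 7 Kupffer cell markers rose and their mean level ran from 9.10 to 9.75 at 150, against 8.29 to 8.84 at dose 0. In the same comparison 3 of 5 stellate cell markers fell, with a mean level from 8.93 to 9.26 at 150, against 9.32 to 9.66 at dose 0. Of all genes 2.2% were called higher and 0.835% lower in that comparison. In the other 3 comparisons 0 of 7 Kupffer cell and 0 of 5 stellate cell markers passed the test, which does not show that they were unchanged. The Kupffer median log2 changes were 0.27 in females on day 7, and -0.04 in females and -0.34 in males on day 2. The stellate cell medians were -0.25, -0.33 and -0.23 in the same order. The fold of Gstm3 was 5.14, 6.65 and 5.77 in that order, and 4.41 in males on day 7. Of 6 markers of sinusoidal endothelium, 0 passed in females and 1 fell in males on day 7, and 2 fell in females and 1 in males on day 2. Of 3 measured neutrophil markers, 1 rose in males on day 7 and 1 in females on day 2. Of 4 cholangiocyte and 4 lymphocyte markers 0 passed, and of 6 hepatocyte markers 1 fell in females on day 7. Of all genes, 1.52% were called higher in females on day 7, and 3.32% in females and 2.5% in males on day 2. Called lower were 0.923%, 2.14% and 2.4% in that order. The part of these liver cells in the Gstm changes was not tested.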

How the data were processed

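Total RNA of 96 mouse liver samples, not stated to be from 96 separate mice, was measured on expression arrays, 1 per sample. Extraction was with Trizol and labelling with Enzo biotin, per the labels' protocols. The deposited values are log2 signals that the authors had normalized between arrays, by a method not given in the sources used here. Of 45101 probe sets, 64 controls were left out; 34945 carried 1 gene symbol in the supplied platform annotation, 932 several and 9160 none. The highest-mean set of each gene gave 18193 genes.

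Group means were estimated by limma (3.58.1, under R 4.3.3, with data.table version 1.17.8; figures by matplotlib 3.10.9) from all 96 arrays, with 72 residual degrees of freedom, two-sided tests and Benjamini-Hochberg adjustment at 0.05. On simulated data for 150 against 0 in females on day 2 (18193 genes), limma recovered 98 of 100 genes changed 2-fold. It recovered 87 of 100 changed 1.5-fold, and 14 of 199 calls were false. The simulated noise was normal and independent between genes and arrays, so these rates need not hold for the real arrays. The number of arrays limits the precision.

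The members and lists were chosen with earlier results of these data known. Named besides the members were Cyp2b10, Cyp2c55, Nqo1, the 3 genes of each list with the smallest adjusted p at 150, and the 3 genes most like each member called. Promoters are from RefSeq (GRCm38.p6). The alternatives were other normalization, filters, weights, fits and probe sets, and leaving out each array.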

Additional observations from a re-analysis of the deposited data

Results flagged for a closer look

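In 5 of the 168 groups of 4 arrays (7 genes in 24 groups), 1 array lay so far from the other 3 that its gap took up nearly the whole range of the group, by Dixon's criterion at the 95% level. Chance alone flags about 1 group in 20, or 8.4 of 168. Each of the 5 was the lowest array of its group. Those of Gstm2, Gstm6 and Gstm7 were all replicate 2 of males on day 7, at different doses. Whether arrays of the same replicate number share a deviation was not tested for these flags. Gstm1 in females at dose 0 on day 7 was 12.96 in replicate 1, where the others had 13.28 to 13.35. Gstm2 in males at 1.5 on day 7 was 9.87 in replicate 2, where the others had 10.34 to 10.41. Gstm4 in females at 15 on day 2 was 9.59 in replicate 1, where the others had 10.05 to 10.11. Gstm6 in males at 75 on day 7 was 9.31 in replicate 2, where the others had 10.46 to 10.66. Gstm7 in males at 15 on day 7 was 9.44 in replicate 2, where the others had 9.91 to 9.95. No change at 150 or 75 differed between the sexes or between the days for any member, so none was listed on that ground.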

How the results depend on the processing

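The rises of Gstm1, Gstm2, Gstm3 and Gstm4 at 150 mg/kg-day stayed past the threshold under every alternative run, the fits without 1 array included. Of 241 recomputed counts, other than those without 1 array, 235 stayed within 1.5 times the reported count. Fitting the 8 arrays of the comparison alone gave 2 members at 75 in females on day 7, 1 in females on day 2 and 1 in males on day 2. Fitting the 24 arrays of 1 sex and day gave 3 calls between neighbouring doses in place of 8. For females against males at dose 0, testing all probe sets gave 0 and array weights gave 2.

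Without 1 array each in turn, the count at 75 ran from 2 to 4 in each sex on each day, the count between neighbouring doses from 5 to 10, and the count between the sexes at dose 0 from 0 to 1. In the same fits the uncalled change at 150 ran from -0.10 to 0.25 for Gstm6 in females on day 7, from -0.14 to 0.16 for Gstm5 in females on day 2, and from -0.0168 to 0.12 for Gstm7 in females on day 2, each changing sign.

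Gstm6 at 150 in males on day 2 passed the threshold in limma with the 24 arrays (adjusted p = 0.00201), the 8 arrays (0.0174), array weights (0.0497) and without the dose 0 array of replicate 2 (0.0495), its change then 0.78, 0.78, 0.80 and 0.90. With the replicate block it was 0.78 with a limma adjusted p of 0.0456. Whether the replicate numbers of the titles pair the arrays is not known. Over all genes, 2 of 16 same-numbered pairs at 150 and 0 deviated together at an r above 0.1 (range -0.16 to 0.14). In 6 of 16 the same number was the best match. For replicate 2 of males on day 7 that r was 0.13, beside 0.14 for the best other number. In males on day 7, replicate 2 was the lowest Gstm6 array at 0, 1.5, 15, 75 and 150 (9.73, 9.64, 9.41, 9.31 and 9.81), though not at 0.15. It was also the lowest Gstm1 array at the same doses (13.34, 13.29, 13.29, 13.62 and 13.90). The same held for Gstm3 at 0, 1.5, 15 and 75 and for Gstm7 at 1.5, 15, 75 and 150. Gstm2, Gstm4 and Gstm5 had it lowest at fewer doses. The block moved no count by over 1.5 times. The cause of the shifts between fits was not tested. The dimmest genes and the array maximum limit what small changes can be seen.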
